A study of Mus musculus with 23 samples.

Results

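The genes described here are 9 transcription factors that define acinar and pancreatic identity: *Ptf1a*, *Rbpjl*, *Bhlha15*, *Nr5a2*, *Gata4*, *Gata6*, *Foxa2*, *Pdx1* and *Onecut1*. They were chosen by name, as 9 of the 18512 gene symbols counted in RNA sequencing libraries from the head of the mouse pancreas. The study followed recovery after pancreatitis brought on by caerulein, an analogue of cholecystokinin that overstimulates the acinar cell. C57BL/6 mice of 6 to 8 weeks received 8 hourly injections of caerulein at 50 µg/kg on each of 2 days. The groups were 8 non-injured mice (baseline, 4 females and 4 males), 8 mice at day 7 after injury (4 females and 4 males) and 7 mice at day 14 (3 females and 4 males). Each library came from 1 mouse. The labels give no vehicle injection for the baseline mice, so that injury and injection cannot be told apart.

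All 23 libraries carried the acinar enzymes of the labelled tissue, whose 20 listed genes summed to between 345693 and 825677 CPM (counts scaled to a common library size). Total counts ran from 7059890 to 9567446 a library, and the 9 factors had between 18 (*Onecut1*) and 2409 (*Bhlha15*) raw counts in a mouse, so that all 9 passed the filter on low counts. The sampling error of a count, as a percent of its value, was 2.34% for *Bhlha15* at its mean count and 16.2% for *Onecut1*. Markers of other tissues varied between libraries. Lymphocyte markers stood at 54.8 to 96.1 CPM in 4 mice (baseline mouse 5, day 7 mice 10 and 15, day 14 mouse 21). Of the duodenal markers, *Apoa4* and *Fabp2* were at 0 in every baseline library, and the summed level was 19.9 CPM at most, in a day 14 mouse. Adipocyte and smooth muscle markers reached 156 and 101 CPM at most.

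The acinar cell makes and secretes digestive enzymes. Its program is driven by the PTF1 complex, in which the bHLH protein PTF1A pairs with an E protein and with RBPJL, the adult acinar subunit that takes the place held by the Notch effector RBPJ in the embryonic pancreas. MIST1, the product of *Bhlha15*, builds the secretory apparatus and keeps acinar cells polarized. NR5A2, GATA4 and GATA6 act beside PTF1 on acinar genes, while FOXA2, PDX1 and ONECUT1 are endodermal and pancreatic factors that also serve ductal or islet cells. Acinar cells are known to lower this program when they are injured.

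Promoter sequences are shown for *Rbpjl* and *Bhlha15*, both lower at day 7 in the main fit below. They were picked because both hold the E-box that PTF1-type bHLH pairs prefer, and a link between motif and change was not tested. Sequences were taken from RefSeq (GRCm38.p6, 250 bases before to 50 after the start, plus strand for both genes), and 7 of the 9 factors matched an entry, with 10 promoters in all. *Gata4*, which was also lower at day 7, and *Gata6* matched none, so that their promoters could not be searched. Capitals mark the E-box CACCTG, here read on the opposite strand as CAGGTG. In *Rbpjl* they also mark the GATA motif AGATAA. The *Rbpjl* promoter is at chr2:164402944-164403243 and the *Bhlha15* promoter at chr5:144190036-144190335.
Rbpjl: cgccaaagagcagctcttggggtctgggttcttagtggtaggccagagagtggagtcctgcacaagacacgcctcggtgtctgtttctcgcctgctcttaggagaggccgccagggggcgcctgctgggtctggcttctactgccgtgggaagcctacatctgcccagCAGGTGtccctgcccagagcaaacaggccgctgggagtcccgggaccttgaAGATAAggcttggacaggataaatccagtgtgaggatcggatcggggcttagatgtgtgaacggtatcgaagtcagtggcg
Bhlha15: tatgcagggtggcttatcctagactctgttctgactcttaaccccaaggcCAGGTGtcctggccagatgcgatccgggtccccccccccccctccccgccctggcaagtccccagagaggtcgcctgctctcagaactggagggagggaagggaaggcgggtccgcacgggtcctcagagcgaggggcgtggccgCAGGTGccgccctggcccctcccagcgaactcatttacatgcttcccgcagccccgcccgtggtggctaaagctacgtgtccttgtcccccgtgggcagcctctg

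In *Rbpjl*, CAGGTG begins 82 bases before the start and AGATAA 31 bases before it. *Bhlha15* holds CAGGTG at 200 and at 55 bases before its start. The E-box, on either strand, was in 4 of the 10 promoters (*Rbpjl*, *Bhlha15*, *Pdx1* and 1 of the 2 *Nr5a2* promoters) and in 20.2% of 32851 promoters of the same length. AGATAA, on either strand, was in 3 of the 10 (1 each of *Rbpjl*, *Nr5a2* and *Foxa2*) and in 11.2% of all. A further 5 motifs were searched on both strands, and none overlapped another: CATATG, the E-box that MIST1 binds (0 of 10, 3.91% of all), TTTCCC, the core bound by RBPJ proteins (2 of 10, both of *Nr5a2*, 25.2%), AAGGTCA, the NR5A site (0 of 10, 4.72%), TGTTTAC, a forkhead site (0 of 10, 3.65%) and ATCAAT, an ONECUT site (1 of 10, of *Foxa2*, 7.54%). The *Ptf1a* and *Onecut1* promoters held none of the 7 motifs, which says only that these letters are not in this window.

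Levels can be compared between genes per exon length, as FPKM (scaled CPM divided by the length in kilobases of the union of exons). *Bhlha15* was the most abundant of the factors, with a median of 60.9 FPKM over all mice. *Rbpjl* followed at 31.4 and *Ptf1a* at 25.7 FPKM. *Nr5a2* stood at 11.3, *Gata4* at 11 and *Foxa2* at 7.85 FPKM. The lowest were *Pdx1* at 2.12, *Gata6* at 2.11 and *Onecut1* at 1.05 FPKM. *Bhlha15* was above *Rbpjl* in 23 of 23 mice and *Foxa2* was above *Pdx1* in 23 of 23. Some neighbours in this order were not separable by this length: *Nr5a2* was above *Gata4* in 11 of 23 mice, *Pdx1* above *Gata6* in 12 of 23, and *Rbpjl* above *Ptf1a* in 17 of 23. That depended on the length used. With the longest transcript in its place, *Gata6* (median 3.64 FPKM) was above *Pdx1* (2.12) in 23 of 23 mice. *Rbpjl* was then above *Ptf1a* in 22 of 23 and *Nr5a2* above *Gata4* in 17 of 23. Among 11738 genes tested that had a length, *Bhlha15* ranked 221 at baseline, *Rbpjl* 408, *Ptf1a* 495 and *Onecut1* 8324. *Gata4* was above *Nr5a2* in 6 of 8 baseline mice, and *Nr5a2* was above *Gata4* in 5 of 8 day 7 mice and 4 of 7 day 14 mice, with overlapping ranges in each group and no test of a change.

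**Figure D1:**
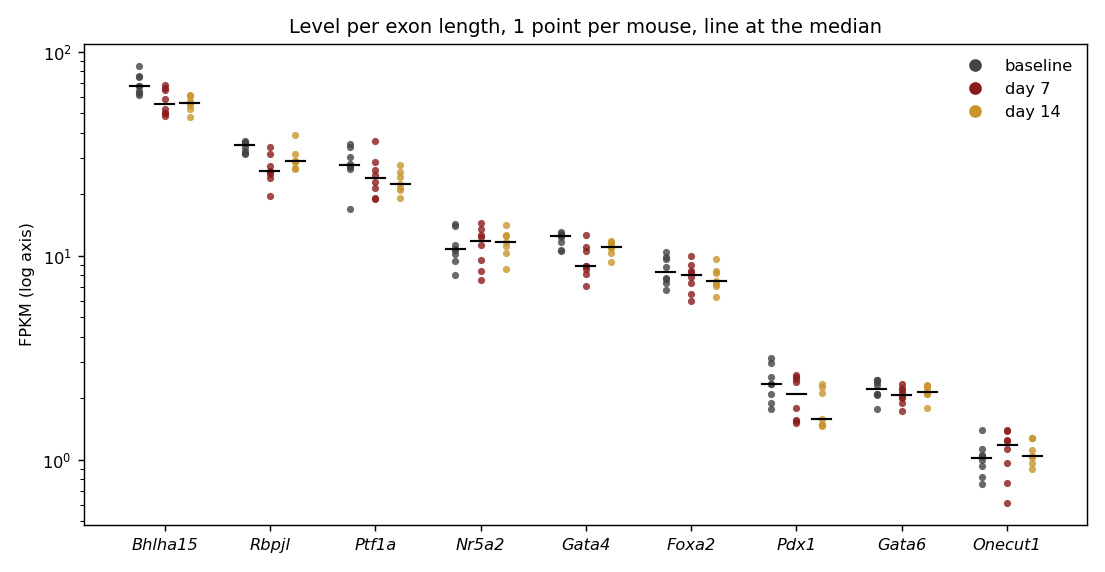
Level of each factor per exon length in FPKM (log axis), with 1 point per mouse and a line at the median of baseline, day 7 and day 14. The factors fall from a median of 60.9 FPKM for *Bhlha15* to 1.05 FPKM for *Onecut1*, and the ranges of *Nr5a2* and *Gata4* overlap, as do those of *Pdx1* and *Gata6*.

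At day 7, 3 of the 9 factors were lower than at baseline: *Rbpjl*, *Gata4* and *Bhlha15*. *Rbpjl* fell by 21.9%, *Gata4* fell by 21.2% and *Bhlha15* fell by 17.9%, in counts scaled by the trimmed mean of M values (TMM), which holds most genes level between libraries. When libraries were scaled by their total count instead, all 9 factors came out higher at day 7, since the median of all genes then rose by 0.476 on the log2 scale, with 5 called (*Ptf1a*, *Nr5a2*, *Gata6*, *Foxa2* and *Onecut1*) where 76.7% of all genes were, and relative to that median *Rbpjl* was at -0.39, *Gata4* at -0.37 and *Bhlha15* at -0.32. The 20 most abundant genes held a median of 69.6% of counts at baseline and 61% at day 7. With these left out of the total, *Rbpjl* was at -0.28 (adjusted p = 0.0158 by edgeR), *Gata4* at -0.27 (adjusted p = 0.0145) and *Bhlha15* at -0.21 (adjusted p = 0.0362). No other factor was called in that setting, where 22% of all genes were. Under TMM scaling *Ptf1a*, *Nr5a2*, *Gata6*, *Foxa2*, *Pdx1* and *Onecut1* did not pass the test. The test was edgeR's quasi-likelihood test on all 23 mice with sex as covariate, and a gene was called at an adjusted p of at most 0.05 (Benjamini-Hochberg over 12195 genes). By that rule 18.6% of all genes were called, and 9.7% were called lower. None of the 9 factors reached the study's threshold of a 1.5-fold change, which 5.13% of genes did. DESeq2 also called 3 of the 9, where it called 12.5% of 18269 genes, and put 0 of the 9 past 1.5-fold. With either tool 3 of the 9 had an unadjusted p under 0.05, as 32.2% of all genes did by edgeR. In bulk tissue, fewer cells of a type and less RNA per cell cannot be told apart.

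*Rbpjl* (ENSMUSG00000017007, chr2:164403141-164415448, mm10) is the adult acinar subunit of PTF1, and its promoter is printed above. It had between 1576 and 1810 normalised counts at baseline with a median of 1735, between 975 and 1693 at day 7 with a median of 1287, and between 1321 and 1938 at day 14 with a median of 1442. In 7 of 8 day 7 mice it was below every baseline mouse, and the groups overlapped only through day 7 mouse 9. On the log2 scale it changed by -0.36 (standard error 0.088, adjusted p = 0.0049 by edgeR). *Ptf1a* (chr2:19445663-19447501), the bHLH subunit, gave a median of 364 normalised counts at baseline (222 to 461) and 314 at day 7 (247 to 479), and all but 1 of the day 7 mice lay within the baseline range. Its log2 fold change was -0.18 (95% interval -0.45 to 0.10, adjusted p = 0.374 by edgeR), which does not show that it was level.

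Of the 4 other proteins that can complete PTF1, *Rbpj* rose and the E protein genes *Tcf3*, *Tcf12* and *Tcf4* were not called. The medians of *Rbpj* were 119 normalised counts before injury and 147 at day 7, and it rose by 0.29 on the log2 scale (standard error 0.071, adjusted p = 0.00508 by edgeR) and by 0.74 under total count scaling. Among the Id proteins, which pair with E proteins and keep them from DNA, *Id2* rose by 0.52 (standard error 0.14, adjusted p = 0.00914 by edgeR), the only one called of 3 tested. *Rbpj* and *Id2* were higher where *Rbpjl* was lower, and the ratio of *Rbpjl* to *Rbpj* counts in the same library needs no scaling between libraries. That ratio was 11.9 to 18.1 at baseline (median 14.4), 6.29 to 11.8 at day 7 (median 8.89) and 9.80 to 17.1 at day 14 (median 11.1). All 8 day 7 mice were below every baseline mouse. Of single genes, 2.75% showed such a separation in their own normalised counts, and no share was computed for ratios of genes. The ratios within libraries were chosen after the values were seen. The fall of *Rbpjl* and the rise of *Rbpj* given above both lower this ratio, so that its test is not independent of them. The ratio fell by 0.66 on the log2 scale at day 7 (exact two-sided permutation test, p = 0.000155, the smallest that 8 against 8 mice allow, adjusted p = 0.0014 over 9 comparisons of ratios). From day 7 to day 14 it differed by 0.37 (exact two-sided permutation test, p = 0.018, adjusted p = 0.0541), short of the threshold. The ratio of *Ptf1a* to *Rbpjl* differed by 0.19 at day 7 (exact two-sided permutation test, p = 0.329, adjusted p = 0.37).

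**Figure D2:**
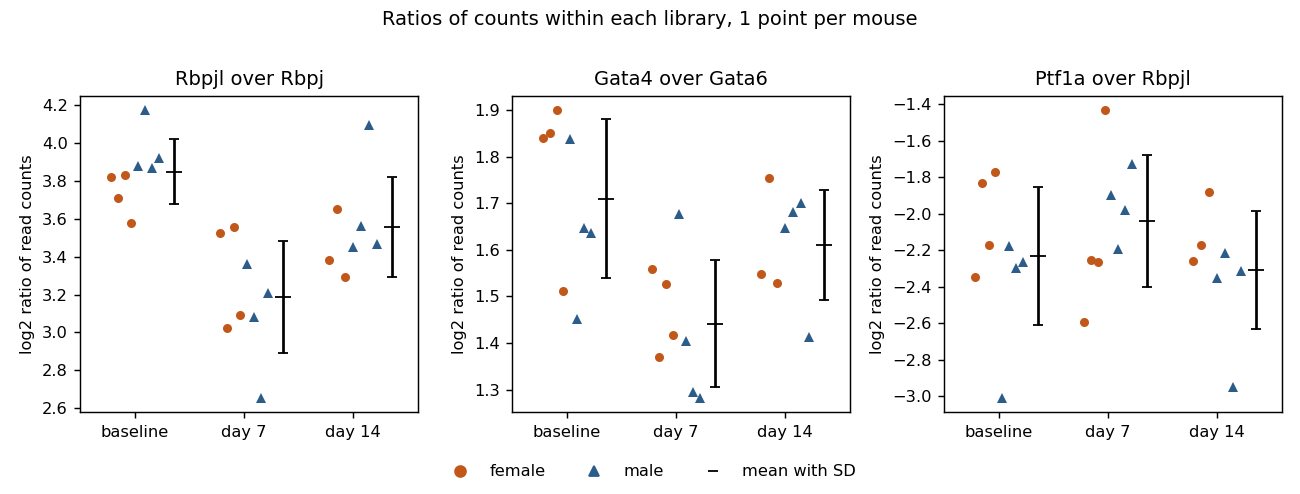
Log2 ratio of raw read counts within each library for *Rbpjl* over *Rbpj*, *Gata4* over *Gata6* and *Ptf1a* over *Rbpjl*, with 1 point per mouse (females circles, males triangles) and the mean with SD beside each group. The *Rbpjl* over *Rbpj* ratio of all 8 day 7 mice lies below that of all 8 baseline mice.

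*Bhlha15* (chr5:144190286-144194441), which encodes MIST1, had between 1849 and 2584 normalised counts at baseline (median 2060), between 1474 and 2081 at day 7 (median 1682) and between 1455 and 1868 at day 14 (median 1707). In 5 of 8 mice at day 7 it was below every baseline mouse. Its log2 fold change at day 7 was -0.29 (standard error 0.077, adjusted p = 0.0094 by edgeR). Of 6 tested genes known as targets of MIST1, 3 were lower and none higher at day 7. Their median change was -0.25 on the log2 scale, beside 0.022 for all genes. They were *Rab3d*, a GTPase of zymogen granules, at -0.27 (adjusted p = 0.00428), *Gjb1*, an acinar gap junction protein, at -0.29 (adjusted p = 0.0135), and *5330417C22Rik* at -0.25 (adjusted p = 0.0162), all by edgeR. Under total count scaling the calls turned, with all 6 called higher and none lower, and their median was -0.27 relative to that of all genes. Of 6 regulators of secretory stress, *Atf6*, a sensor of unfolded protein, and *Creb3l1* were lower (log2 fold changes of -0.30 and -0.35, adjusted p = 0.00269 and 0.0143 by edgeR), while under total count scaling 5 of the 6 were called higher and none lower.

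*Gata4* (chr14:63198922-63271692), a zinc finger factor of the acinar cell, had between 359 and 443 normalised counts at baseline (median 423), between 241 and 426 at day 7 (median 302) and between 316 and 399 at day 14 (median 373). In 6 of 8 day 7 mice it was below every baseline mouse, while mice 9 and 13 lay within the baseline range. Its log2 fold change was -0.34 (standard error 0.086, adjusted p = 0.00556 by edgeR). Its paralogue *Gata6* (chr18:11052064-11085635) was not called, with medians of 125, 117 and 121 normalised counts at baseline, day 7 and day 14, and a log2 fold change at day 7 of -0.09 (95% interval -0.26 to 0.07). The *Gata4* to *Gata6* ratio was 2.74 to 3.73 at baseline (median 3.35) and 2.43 to 3.20 at day 7 (median 2.66). It fell by 0.27 on the log2 scale (exact two-sided permutation test, p = 0.00575, adjusted p = 0.0259). This ratio too was chosen after the values were seen, and its test is not independent of the fall of *Gata4*. Of the other GATA genes and their cofactors, 2 of 6 had enough counts to test, and *Zfpm1*, a GATA cofactor, was lower (log2 fold change -0.35, adjusted p = 0.00484 by edgeR), although its value was 0.10 under total count scaling.

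*Nr5a2* (chr1:136842571-136960448), a nuclear receptor of acinar genes, varied widely in every group. It had 413 to 732 normalised counts at baseline (median 550), 391 to 743 at day 7 (median 607) and 440 to 722 at day 14 (median 600), with a log2 fold change at day 7 of 0.02 (95% interval -0.26 to 0.31). *Foxa2* (chr2:148042877-148046969), a forkhead factor of endoderm, had medians of 171, 166 and 154 normalised counts. *Pdx1* (chr5:147269959-147275848), which marks beta cells in the adult pancreas and is low in acinar cells, had 33.2 to 58.8 at baseline (median 43.9), 28.4 to 48.8 at day 7 (median 39.2) and 27.3 to 43.8 at day 14 (median 29.6). *Onecut1* (chr9:74861921-74891781), a ductal and acinar factor, had medians of 36.4, 42.3 and 37.4. For *Foxa2*, *Pdx1* and *Onecut1* the log2 fold changes at day 7 were -0.11, -0.22 and 0.10, each with an interval that spans 0. The counts behind *Pdx1* and *Onecut1* were few, and their sampling error of 16.1% and 16.2% is close to the spread between mice, of 20.5% to 24% and 13.6% to 26.3% within groups.

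**Figure D3:**
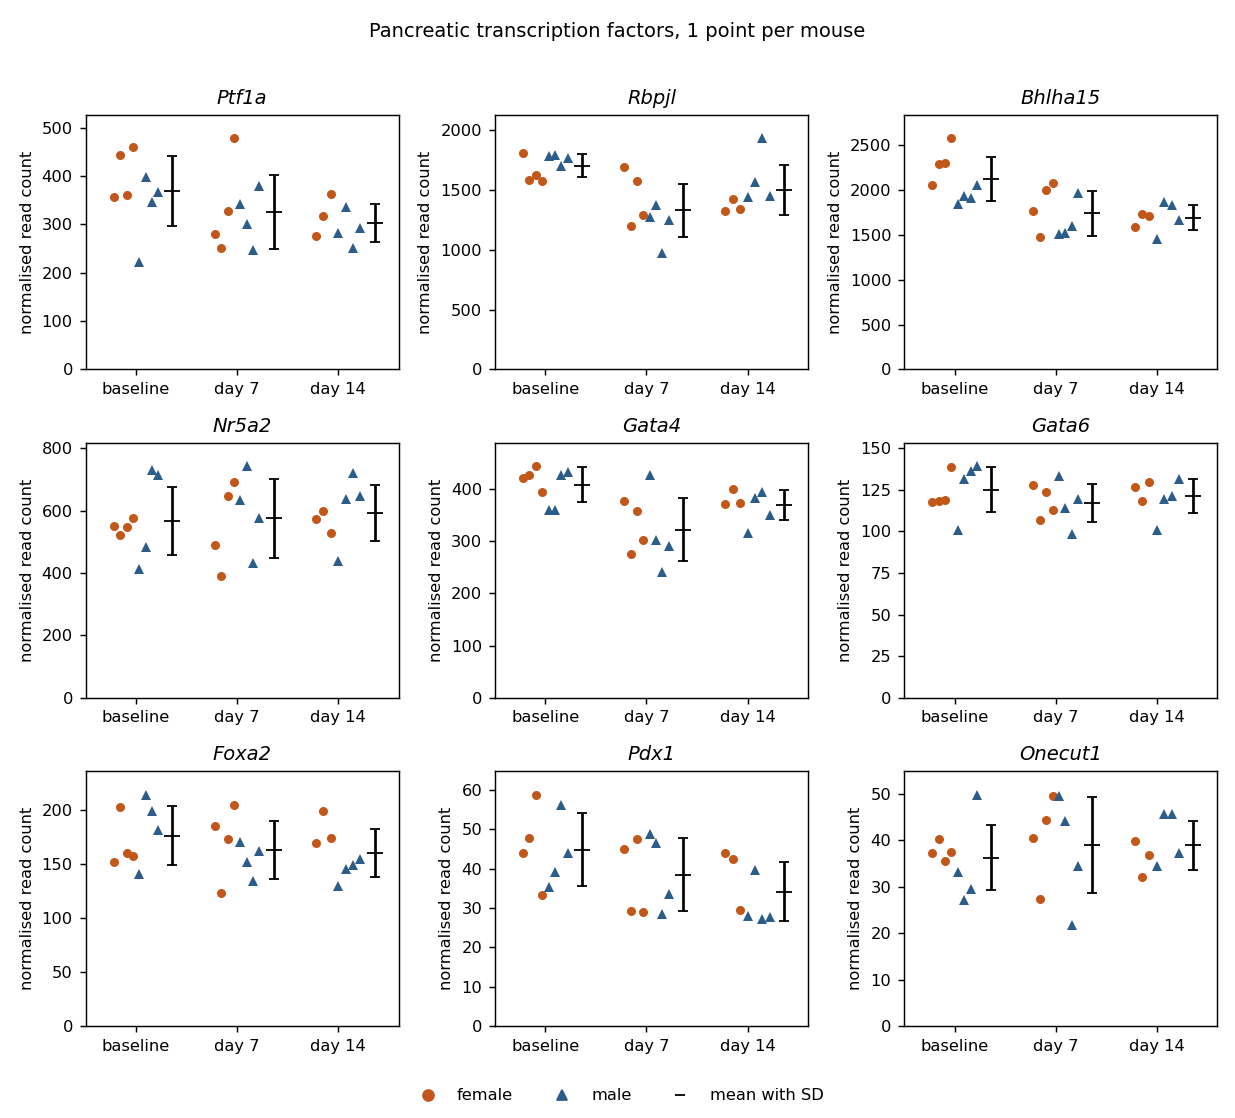
Normalised read count of each factor by time point, with 1 point per mouse (females circles, males triangles) and the mean with SD beside each group. *Rbpjl*, *Gata4* and *Bhlha15* are lower at day 7, with medians of 1287, 302 and 1682 against 1735, 423 and 2060 at baseline on TMM-scaled counts. The direction turned under total count scaling, but not with the 20 most abundant genes left out of the total.

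Markers of acinar and other cell types also differed at day 7, some lower and some higher. Acinar enzymes were lower, 18 of 20 being called, by a median of -0.60 on the log2 scale (*Pnlip* -0.88, *Cpa1* -0.87, *Prss2* -0.94), and 15 of the 20 were still below 0 under total count scaling. Summed over the list they ran from 569232 to 825677 CPM before injury. The range was 345693 to 513888 CPM at day 7, below every baseline mouse, and 542776 to 629295 CPM at day 14. Islet markers were higher, with 7 of 10 called, from 133 to 565 CPM at baseline to 416 to 1200 at day 7. Fibroblast markers were higher with 7 of 8 called, at 333 to 667 CPM and 638 to 1201 CPM. Macrophage markers were higher with 7 of 10 called, at 48.9 to 164 CPM and 92.9 to 223 CPM. Of 8 ductal markers, 5 were above 0 and 3 below, with 3 called higher (*Krt7*, *Spp1*, *Car2*) and 0 called lower. Islet factors rose as well: *Rfx6* by 1.06 (adjusted p = 0.0142), *Isl1* by 0.87 (adjusted p = 0.0354) and *Glis3* by 0.44 (adjusted p = 0.0222), by edgeR, 3 of 6 tested. Of 10 ductal and progenitor factors, *Prox1*, *Wwtr1* and *Ehf* were higher and *Tead1* and *Tead2* lower, although these 2 came to 0.11 and 0.059 under total count scaling. Of 6 endothelial markers 4 were below 0 at day 7, with a median of -0.23, and *Kdr*, a receptor of endothelial cells, was called lower (-0.35, adjusted p = 0.00875 by edgeR), while under total count scaling 5 of 6 were above 0 and none was called lower. From day 7 to day 14 *Emcn*, an endothelial surface protein, rose by 0.64 (adjusted p = 0.00487 by edgeR). Of 4 tested mesothelial markers none was called by edgeR under TMM scaling in the 3 comparisons of time points, with 0 at an unadjusted p under 0.05 at day 7, 2 at day 14 and 2 between the days, and DESeq2 called none either. Under total count scaling 1 of these 4 was called higher at day 7 and 2 lower between the days. The part of these cell types in the fall of *Rbpjl*, *Gata4* and *Bhlha15* was not tested. Day 7 mice 10 and 15, which carried the lymphocyte markers, had the lowest *Rbpjl* and *Gata4* of their group, and mouse 10 had the lowest *Bhlha15*. Without the 4 mice richest in these markers the log2 fold changes were -0.28 for *Rbpjl* (adjusted p = 0.0225), -0.29 for *Gata4* (adjusted p = 0.00943) and -0.26 for *Bhlha15* (adjusted p = 0.0142), by edgeR.

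Each factor was also set against the mean log2 count of the enzymes in the same library, a ratio that needs no scaling between libraries, and was compared by exact two-sided permutation tests with adjustment over 27 comparisons. The enzymes themselves changed by a median of -0.60 at day 7 and of 0.32 from day 7 to day 14 (log2 scale, TMM). A gene that held level would therefore come out higher at day 7 and lower from day 7 to day 14. This ratio was not computed for all genes, so that the counts that passed have no share beside them. At day 7 all 9 factors were higher against the enzymes than at baseline, by 0.22 (*Rbpjl*) to 0.67 (*Onecut1*) on the log2 scale, and 4 passed: *Nr5a2* (0.61, adjusted p = 0.00629, exact permutation test), *Gata6* (0.50, adjusted p = 0.00629, exact permutation test), *Foxa2* (0.48, adjusted p = 0.0042, exact permutation test) and *Onecut1* (0.67, adjusted p = 0.0161, exact permutation test). For *Foxa2* no day 7 mouse overlapped the baseline range. *Rbpjl*, *Gata4* and *Bhlha15* did not pass (adjusted p = 0.0779, 0.077 and 0.0581, exact permutation tests). From day 7 to day 14 all 9 were lower against the enzymes and 5 passed: *Ptf1a*, *Bhlha15*, *Gata6*, *Foxa2* and *Pdx1*. *Pdx1* differed most, by -0.51 (adjusted p = 0.0474, exact permutation test). At day 14 against baseline *Onecut1* alone passed, at 0.36 (adjusted p = 0.0474, exact permutation test).

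Reads of 3 factors share exons with a gene on the opposite strand, and the strand setting of the counting is not given in the sources used here. *Matn4*, which overlaps *Rbpjl*, had a median of 87 raw counts at baseline beside 1292 for *Rbpjl*, and was lower at day 7 (log2 fold change -0.43, adjusted p = 0.00337 by edgeR). *1010001N08Rik*, which overlaps *Gata6*, was higher at day 7 (log2 fold change 0.50, adjusted p = 0.0479 by edgeR), from a median of 22.5 raw counts to 45. *Ptf1aos* had at most 6 counts in a mouse. *Onecut1* shares exons with *Gm20649* on the same strand, a symbol that was not among those counted.

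At day 14 against baseline, *Bhlha15* was the only one of the 9 factors called, where 1.57% of all genes were called and 0.525% were called lower. All 7 day 14 mice were below the baseline median and 6 of 7 below every baseline mouse. The log2 fold change was -0.31 (standard error 0.080, adjusted p = 0.0424 by edgeR), a fall of 19.4%, and under total count scaling it was -0.10 (adjusted p = 0.322 by edgeR), where the median of all genes rose by 0.219. The adjusted p lay close to the threshold, and the call was lost in 11 of 23 fits that left out 1 mouse. In those fits the adjusted p by edgeR was 0.0752, 0.0734, 0.0728, 0.0548 and 0.0768 without baseline mice 2, 3, 4, 7 and 8. It was 0.0548 without day 7 mouse 9. It was 0.122, 0.105, 0.124, 0.0855 and 0.0673 without day 14 mice 17, 18, 19, 21 and 24. Over all 23 fits the log2 fold change of *Bhlha15* stayed between -0.35 and -0.28. It was called in 7 of 9 other settings, with an adjusted p of 0.00805 by DESeq2. Without the 4 mice rich in lymphocyte markers the adjusted p was 0.0188 by edgeR. *Pdx1* changed by -0.38 on the log2 scale (standard error 0.17, adjusted p = 0.304 by edgeR) and *Ptf1a* by -0.27 (standard error 0.14, adjusted p = 0.412 by edgeR). Both were below the baseline median in most mice, *Pdx1* in 7 of 7 and *Ptf1a* in 6 of 7. *Rbpjl* was at -0.19 (standard error 0.091, adjusted p = 0.369 by edgeR), with 6 of 7 mice below every baseline mouse and mouse 23 above them all. *Gata4* was at -0.14 and *Nr5a2* at 0.06. None of the 9 reached 1.5-fold, as 0.787% of genes did, and 3 had an unadjusted p under 0.05, as 13.3% of genes did. DESeq2 called 1 of the 9, where it called 1.41% of genes, and gave 4 of the 9 an unadjusted p under 0.05. No MIST1 target was called at day 14 by edgeR, with 1 of 6 at an unadjusted p under 0.05.

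Between day 14 and day 7 no factor was called by edgeR, where 1.29% of genes were called and 0.377% also passed 1.5-fold, and 1 of the 9 had an unadjusted p under 0.05, as 14.1% of genes did. DESeq2 called 0 of the 9 too, where it called 1.83% of genes, with 1 at an unadjusted p under 0.05 and no adjusted p for 2 of the 9. Under total count scaling *Bhlha15* (-0.26, adjusted p = 0.0153 by edgeR) and *Foxa2* (-0.25, adjusted p = 0.0376 by edgeR) were called lower, where 33.7% of genes were called, and *Gata4* and *Rbpjl* were at -0.027 and -0.064, against a median of all genes of -0.26. *Gata4* changed by 0.21 on the log2 scale (standard error 0.088, adjusted p = 0.275 by edgeR) and all 7 day 14 mice were above the day 7 median. Without day 7 mouse 13, the day 7 mouse with the most *Gata4*, it was 0.30 (adjusted p = 0.0452 by edgeR). *Rbpjl* was at 0.17 (standard error 0.091, adjusted p = 0.416 by edgeR), again with 7 of 7 mice above the day 7 median, and *Bhlha15* at -0.03 (95% interval -0.19 to 0.14). The day 7 and day 14 comparisons share the baseline mice, so that their values are given side by side only. For *Rbpjl* they were -0.36 and -0.19, for *Gata4* -0.34 and -0.14, and for *Bhlha15* -0.29 and -0.31 on the log2 scale. No factor separated every mouse of one group from every mouse of the other in any of these comparisons, as 2.75% of genes did at day 7, 0.664% at day 14 and 0.549% between the days.

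**Figure D4:**
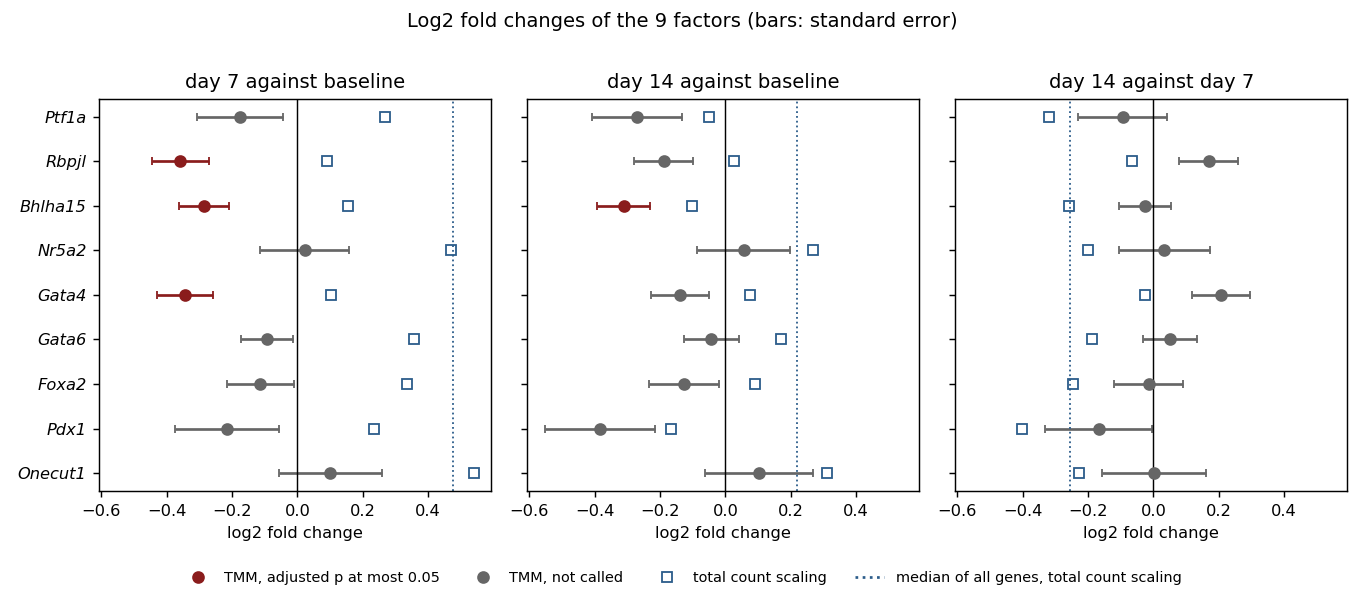
Log2 fold change of each factor in the 3 comparisons, with filled points and standard error bars for TMM scaling (red where the adjusted p is at most 0.05) and open squares for total count scaling. The dotted line is the median of all genes under total count scaling, at 0.476, 0.219 and -0.26, and most squares shift with it.

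Sex was the remaining factor of the design. Over all time points 0 of the 9 factors were called between males and females by edgeR, where 0.574% of genes were, and DESeq2 called 0 as well. One had an unadjusted p under 0.05 with each tool, as 9% of genes did by edgeR: by edgeR *Bhlha15*, at -0.13 in males against females (standard error 0.064, adjusted p = 0.543 by edgeR). The change from baseline did not pass a test of difference between the sexes for any factor, at day 7 (0.00773% of genes called, 0 of 9 at an unadjusted p under 0.05 against 5.45% of genes) or at day 14 (0% called, 1 of 9 against 3.66%), in an edgeR fit of sex and time on 12933 genes. Within males *Rbpjl* was lower at day 7, by -0.53 on the log2 scale (standard error 0.11, adjusted p = 0.00483 by edgeR, 1 of 9 factors called against 8.28% of genes). In males its range was 1703 to 1798 normalised counts at baseline and 975 to 1375 at day 7. Within females it was -0.20 (standard error 0.11, adjusted p = 0.336 by edgeR, 0 of 9 called against 4.78% of genes, 2 at an unadjusted p under 0.05 against 19.7%). The difference between the sexes in that change was -0.33 (standard error 0.16, unadjusted p = 0.0514, adjusted p = 0.924 by edgeR). At day 14 edgeR called 0 of the 9 within females and 0 within males, where 0.201% and 0.139% of genes were called, with 2 at an unadjusted p under 0.05 in each sex, against 9.53% and 7.94%.

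Across mice the factors tended to vary together. Pearson r was computed on log2 CPM of 23 mice with the mean of each time point removed, for 36 pairs of factors and for each factor against 4 lists of markers, 72 relations in all, with permutation within time points. Of the 36 pairs, 34 had a positive r, with a median of 0.40. Since all values of a mouse share a library and its scaling factor, part of such a pattern can come with the library. Several factors were lowest in mice rich in lymphocyte markers. *Bhlha15*, *Nr5a2*, *Foxa2* and *Gata6* had their lowest baseline value in mouse 5 and their lowest day 14 value in mouse 21. At day 7 the lowest was mouse 10 for *Bhlha15*, *Nr5a2* and *Foxa2* and mouse 15 for *Gata6*. *Gata4* was lowest in mice 15 and 21 of their groups but not in mouse 5. *Ptf1a* was lowest in mice 5 and 15 but not in mouse 21. *Rbpjl*, *Pdx1* and *Onecut1* were lowest in mouse 15 at day 7, but not in mice 5 and 21. The relations were not computed without the mice rich in these markers. By r, 7 pairs passed adjustment over the 72 relations. By Spearman's rho no pair did, the smallest adjusted p being 0.114, and under total count scaling no r did (smallest adjusted p = 0.0749).

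*Gata4* and *Pdx1* had the closest relation, with r = 0.70 (permutation p = 5.1e-04, adjusted p = 0.0367), rho = 0.68 (permutation p = 0.00158, adjusted p = 0.114) and r = 0.66 without the 2 mice farthest from the median. Within baseline, day 7 and day 14 it was 0.76, 0.82 and 0.46. *Gata4* and *Gata6* had r = 0.64 (permutation p = 0.00113, adjusted p = 0.0407), rho = 0.50 (permutation p = 0.0224, adjusted p = 0.202), r = 0.48 without 2 mice and 0.29, 0.95 and 0.53 within the time points. *Ptf1a* and *Bhlha15* had r = 0.63 (permutation p = 0.00295, adjusted p = 0.0444), rho = 0.61 (permutation p = 0.00486, adjusted p = 0.117), r = 0.53 without 2 mice and 0.70, 0.71 and 0.23 within the time points. With the means of sex removed too, this pair no longer passed (r = 0.60, permutation test, adjusted p = 0.0504), and the other 6 did. Mice were still permuted within time points without regard to sex, so that p-values with sex removed can be too small. The other pairs that passed were *Nr5a2* with *Onecut1* (r = 0.65) and *Gata6* (0.61), *Gata4* with *Onecut1* (0.67) and *Ptf1a* with *Foxa2* (0.60). The subunits of PTF1 showed no such relation, with r = -0.10 (permutation p = 0.67, adjusted p = 0.766) and rho = -0.12 (permutation p = 0.588, adjusted p = 0.77) for *Ptf1a* and *Rbpjl*, r = -0.06 without 2 mice, and -0.56, 0.20 and -0.52 within the time points. Against the mean level of the acinar enzymes all 9 factors had a positive r, from 0.18 to 0.48, and 0 of 9 passed (smallest adjusted p = 0.188). Under total count scaling all 9 were negative, and none passed. With the means of sex and time point removed, *Foxa2* passed against the enzymes (r = 0.69, permutation test, adjusted p = 0.0282), with the same limit of permutation without regard to sex. No factor passed against islet, ductal or fibroblast markers.

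**Figure D5:**
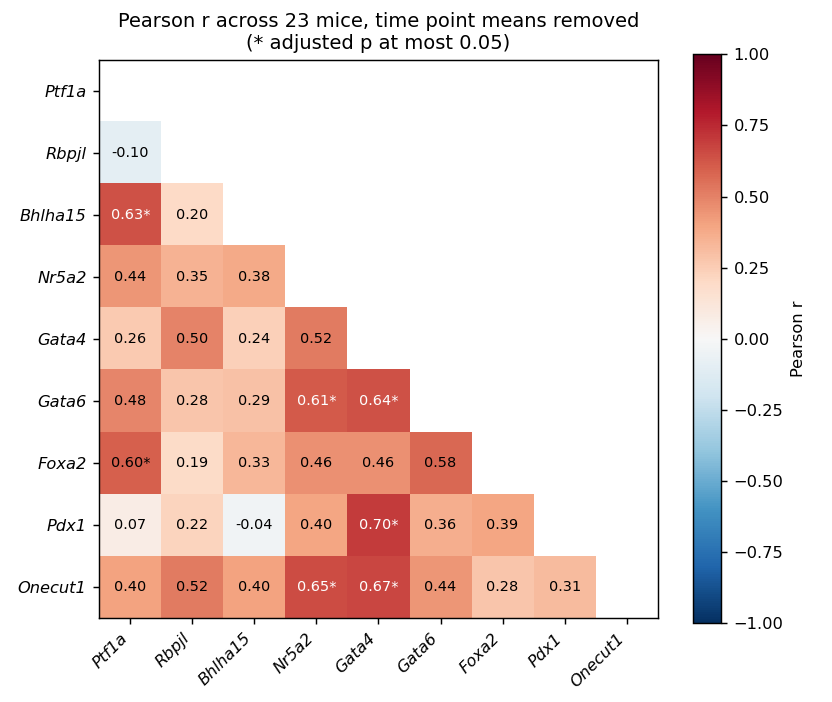
Pearson r between each pair of factors across 23 mice, on log2 CPM with time point means removed. The 7 pairs with an asterisk had an adjusted p of at most 0.05, and 34 of 36 values are above 0.

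The genes whose log2 CPM was most like each factor over the 23 mice are given as a description. *Rbpjl* had the closest match, *Gnas* (r = 0.93), which encodes a G protein subunit, followed by *Mgat4a* (0.89) and *Rab3d* (0.89), and *Gnas* stayed first (0.91) once time point means were removed. *Gata4* was most like *Cmtm4* (0.89), *Aldh1l1* (0.87) and *Etl4* (0.87), and *Bhlha15* most like *Cachd1* (0.83), *Homer2* (0.82) and *Alg1* (0.81). *Ptf1a* was most like *Fam110c* (0.78), *Baiap2l1* (0.78) and *Afg3l2* (0.78), with *Fam110c* at 0.87 once time point means were removed. *Nr5a2* was most like *Arhgef26* (0.83), *Klf9* (0.79) and *Cdc42ep1* (0.79). For *Gata6* it was *Vps54* (0.81), for *Foxa2* *Dnajc21* (0.79), for *Pdx1* *Tbc1d30* (0.82) and for *Onecut1* *Jmy* (0.76).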

How the data were processed

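Total RNA depleted of ribosomal RNA was sequenced for 23 mice (pancreas head). The authors trimmed reads with Trim Galore and cutadapt, aligned them to mm10 with STAR 2.5.2a (version per the submitters' processing notes) and counted uniquely mapped fragments per gene with featureCounts, and deposited raw counts per gene symbol for each mouse. All columns were mapped to a mouse.

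From these counts, edgeR 4.0.16 (R 4.3.3) kept 12195 genes (filterByExpr by time point), scaled by TMM and fitted a robust quasi-likelihood model of time point and sex. A second fit held 6 groups of sex and time. For normalised counts, each count was scaled to the mean TMM effective library. CPM used the same library sizes, log2 CPM a prior count of 2, and FPKM the union of exons in GENCODE vM21 (GRCm38, the build of mm10). A gene was called at an adjusted p of at most 0.05, over all genes tested. Coordinates are from that annotation. TMM factors ran from 0.769 to 1.40. Alternatives were DESeq2 1.42.0, other scalings, filters and samples, and leaving out each mouse. Permutation tests used Python 3.11.15 with numpy 2.4.6, with 100000 permutations for relations and all splits for ratios. The model was tested on simulated data.

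The 9 factors and all gene lists were chosen with earlier results of these data known, and the ratios within libraries and the set without 4 mice after the data were seen. Named genes are the 9 factors, up to the 5 genes of smallest adjusted p called in a list, and the 3 genes most like each factor by r; list members that were not called, and genes that overlap a factor, were named after their values were seen. The result of 1 gene list is not reported here. Of the pairs of libraries in the same group, none agreed within sampling noise. Pairs from different groups were not compared. Depth limits the lowest factors, *Pdx1* and *Onecut1*, most. Mice are the replicates, and the tests weigh differences and relations against the spread between mice.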

Additional observations from a re-analysis of the deposited data

Results flagged for a closer look

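In day 14 mouse 23, *Rbpjl* had 1938 normalised counts, the highest of the 7 mice of its group, and the next was 1564. The gap was 0.607 of the range of the group, above the Dixon limit of 0.568 for 7 mice. This was 1 of 27 groups of mice checked, and chance flags about 1 in 20.

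*Foxa2* moved in opposite directions in the sexes at day 14: every female was above the baseline mean of females and every male below that of males. The log2 fold change was 0.11 in females and -0.34 in males. The difference, males minus females, was -0.45 (standard error 0.21), with an unadjusted p = 0.0437 and an adjusted p = 1 by edgeR, so that it did not pass.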

How the results depend on the processing

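No paired analysis was possible because the mouse numbers are not shared between groups. The 3 calls at day 7 held in 23 of 23 fits that left out a mouse (adjusted p up to 0.0235), and in 8 of 9 other settings. Total count scaling moved the number called to 5 at day 7, 0 at day 14 and 2 between the days, with *Bhlha15* and *Foxa2* called lower between the days, and it turned the sign at day 7 of *Ptf1a* (0.27), *Rbpjl* (0.09), *Bhlha15* (0.15), *Gata4* (0.10), *Gata6* (0.36), *Foxa2* (0.34) and *Pdx1* (0.24), at day 14 of *Rbpjl* (0.025), *Gata4* (0.077), *Gata6* (0.17) and *Foxa2* (0.090), and between the days of *Rbpjl* (-0.064), *Nr5a2* (-0.20), *Gata4* (-0.027), *Gata6* (-0.19) and *Onecut1* (-0.23). Without the 20 most abundant genes in the total, *Nr5a2* (-0.026), *Gata6* (-0.0089) and *Onecut1* (-0.054) turned between the days. *Onecut1* between the days also turned with at least 10 counts in every mouse (-0.0085), without the sex covariate (-0.00029), with only the mice compared (-0.0032) and without the 4 mice rich in lymphocyte markers (-0.14), where *Nr5a2* was at -0.032. None of these turned values had been called by edgeR in the day 14 comparisons; those of *Rbpjl*, *Gata4* and *Bhlha15* at day 7 had. No filter on low counts left 0 called at day 14 (adjusted p = 0.0878 for *Bhlha15*).

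Leaving out a mouse gave 0 to 1 called at day 14 and 0 to 1 between the days, and turned values near 0: *Nr5a2* at day 7 (range of all fits -0.039 to 0.086) and day 14 (-0.0098 to 0.12), and between the days *Onecut1* (-0.091 to 0.078), *Foxa2* (-0.069 to 0.035), *Nr5a2* (-0.023 to 0.099) and *Bhlha15* (-0.060 to 0.025). Under total count scaling 0 relations passed. With the longest transcript, or under total count scaling, 7 of 9 factors kept their rank by FPKM, and *Pdx1* and *Gata6* changed places. Over all genes total count scaling gave 9351, 3048 and 4113 calls at day 7, day 14 and between the days, against 2264, 192 and 157, and 3727, 449 and 477 genes also past 1.5-fold, against 626, 96 and 46. DESeq2 gave 335 between the days. With at least 10 counts in every mouse, 348 genes passed 1.5-fold at day 7 and 30 between the days. At day 14 only the mice compared gave 306 calls. The causes were not tested.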
